A study of Bos taurus with 16 samples.

Results

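The intermediate filament genes of bovine blastocysts are described here through 10 members: the epithelial keratins KRT7, KRT8, KRT18 and KRT19, the filament genes VIM, DES and NES, and the lamins LMNA, LMNB1 and LMNB2. They are 10 of the 22358 loci in the count tables, each matched to 1 locus by its gene name. They were chosen by their measured counts across the pools: keratins and lamins because they were found in all pools, and VIM because nearly all of its counts lay in 1 control pool. Presence and level are therefore given as a description, and no test of VIM is used as support.

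Intermediate filaments are rope-like polymers that give cells and nuclei mechanical strength. In simple epithelia each filament pairs a type II keratin, such as KRT7 or KRT8, with a type I keratin, such as KRT18 or KRT19, and the trophectoderm, the outer epithelium of the blastocyst, is built in this way. Vimentin replaces keratins in mesenchymal cells and is abundant in leukocytes, whereas the lamins form a meshwork under the inner nuclear membrane of nearly every cell.

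Gene expression was measured by RNA-Seq in 16 pools of preimplantation embryos from lactating Holstein cows. The 4 cows of the control treatment (C1 to C4) ate a basal diet, whereas 4 others on the methionine-rich treatment (M5 to M8) ate the same basal diet with rumen-protected methionine, from calving until embryo collection. Each cow gave 2 pools, so that pool C4.2 is the second pool of cow 4. The labels describe the embryos as produced in vitro, whereas the methods of the study describe blastocysts flushed from superovulated cows. A pool holds whole embryos with their trophectoderm and inner cell mass. The study lists a single blastocyst for C4.1, C4.2 and M8.2, and more for every other pool. Most methionine-rich pools held more blastocysts than any control pool. Among pools with an RNA quality number, it was lowest in M7.1, M5.2 and M5.1. The part of embryo number and RNA quality in the diet differences was not tested.

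The total count per pool was 5624126 to 7778414 for 7 control pools, and for the 8 methionine-rich pools it was 5941973 to 7826542. Levels are given as CPM, the count of a locus scaled by the total of its pool, and 3 counts were worth between 0.383 and 0.533 CPM in these 15 pools. Pool C3.2 had 1745048 counts, and the main values rest on the other 15 pools. The study had set C3.2 aside for its low share of exonic reads. The summed level of 10 trophectoderm markers was 1167 to 3025 CPM under control and 1002 to 1933 CPM under the methionine-rich diet. GATA2 led them with a median of 660 CPM over the 15 pools. TFAP2A, GRHL2, CDX2 and CDH1 were at 0 in some pools, with medians of at most 1.96 CPM. SOX17, a hypoblast factor, was at 0 in all 15 pools.

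In short, KRT7, KRT8, KRT18, KRT19 and all lamins had counts in each of the 16 pools, and 3283 of the 3299 VIM counts of the 15 pools lay in C2.1. Apart from VIM, 0 of the 8 tested members were called between diets by the exact test of edgeR (an FDR below 0.1 with a change of 2-fold or more), a rule that called 1.05% of all loci. Of the 4 member keratins, KRT18 had cow means of log2 CPM that separated between the diets, being lower in the methionine-rich treatment, but the separation did not survive adjustment over all loci and was absent on plain CPM averaged within a cow.

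**Figure D1:**
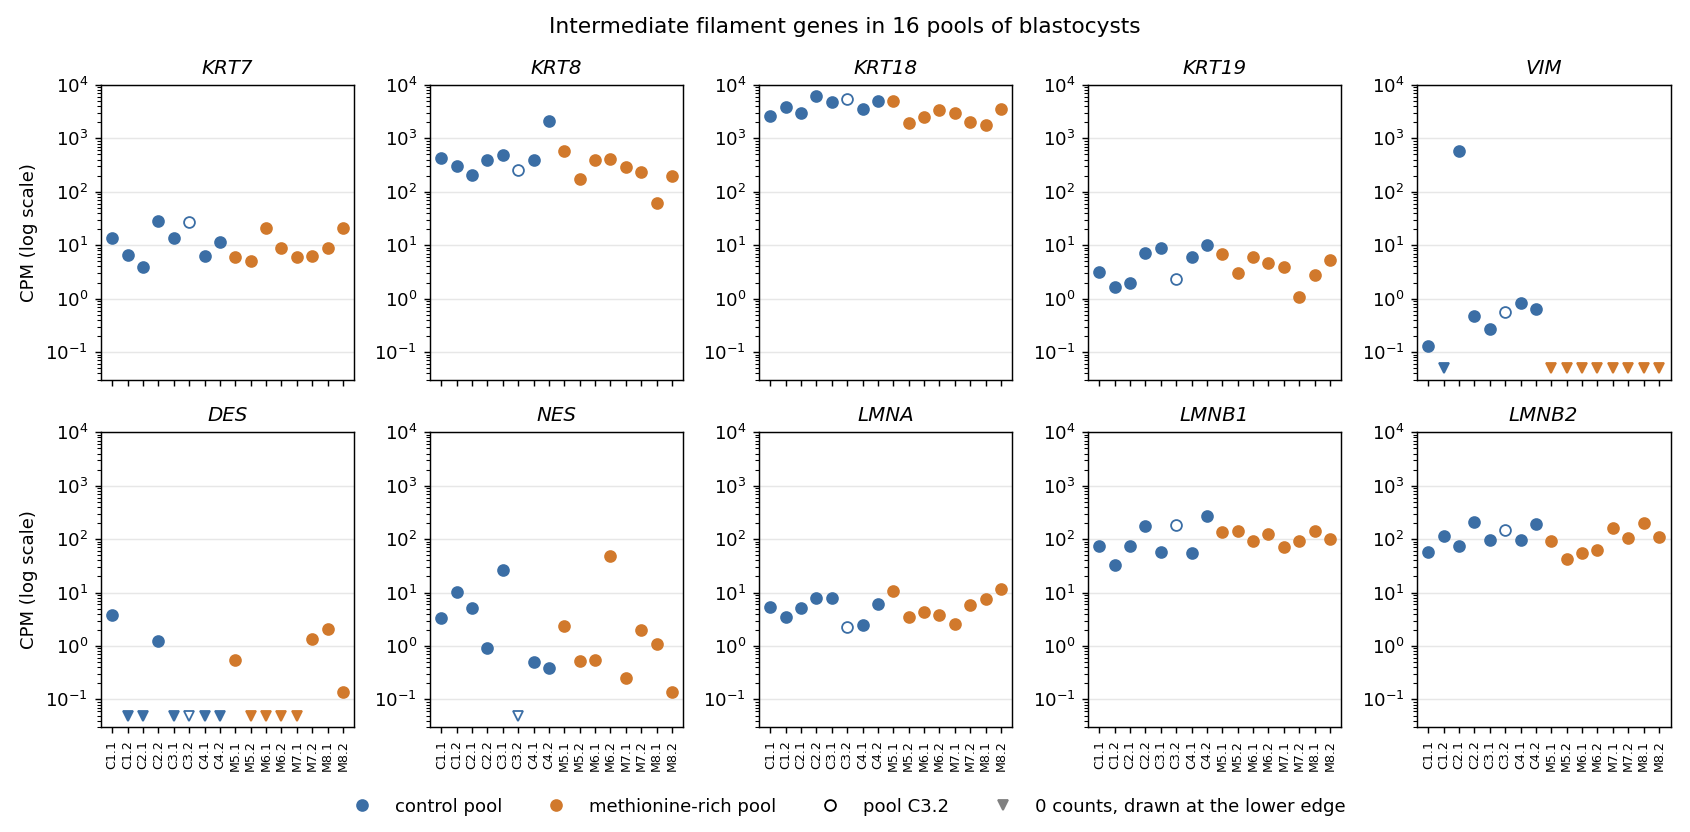
CPM of the 10 members on a log axis in each of the 16 pools, control in blue and methionine-rich in orange, with C3.2 as an open symbol and pools with 0 counts as triangles at the lower edge. Keratins and lamins were found in every pool, whereas VIM reached 583.7 CPM in C2.1 and was at 0 in all 8 methionine-rich pools.

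The type II keratin KRT8 and its usual partner, the type I keratin KRT18, form the first filaments of the early embryo's epithelium. KRT8 had a lowest level of 208.7, a median of 402.2 and a highest of 2114 CPM in the control pools. Under the methionine-rich diet the corresponding KRT8 levels were 60.8, 262.7 and 570.1 CPM. The ranges overlapped, with 3 methionine-rich pools below every control pool and C4.2 alone above every methionine-rich pool. C4.2, a single blastocyst, held 16443 KRT8 counts, or 52.3% of those of the 7 control pools. Its next neighbour among the control pools stood at 489.1 CPM.

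The KRT8 log2 fold change, methionine-rich over control, was -1.10 (exact test of edgeR, unadjusted p = 0.0131, FDR = 0.309 over 10519 loci after Benjamini-Hochberg adjustment). The FDR was 0.423 by the quasi-likelihood test of edgeR, so KRT8 passed neither test. Without cow 4 the log2 fold change shrank to -0.38 with an FDR of 0.984 by the exact test. FDR values of KRT8 over all alternatives lay between 0.180 and 0.993. Averaged to cows, the log2 CPM of KRT8 differed by -0.93 ± 0.52 (SE, 4 cows per diet; exact permutation p = 0.171, two-sided). In bulk RNA a lower level from fewer cells of a type and one from less RNA per cell cannot be told apart.

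KRT18 had a lowest level of 2567, a median of 3891 and a highest of 6291 CPM in the control pools. The methionine-rich treatment gave KRT18 levels of 1757, 2756 and 4926 CPM. Here too the pools overlapped, with 4 methionine-rich pools below every control pool and 2 control pools above every methionine-rich pool. KRT18 was the steadiest of the members in the control pools, where its highest level was 2.45 times its lowest, against 10.1 times for KRT8.

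The KRT18 log2 fold change was -0.54 (exact test of edgeR, unadjusted p = 0.0577, FDR = 0.616), with an FDR of 0.411 by the quasi-likelihood test. The mean log2 CPM of a cow was lower in each of the 4 methionine-rich cows than in any of the 4 control cows, and the diets differed by -0.60 ± 0.13 (SE over cows). The exact permutation p of 0.0286 is the smallest that the 70 assignments of 8 cows can give, and it became 1 after Benjamini-Hochberg adjustment over all loci. Of all loci tested, 1.16% had cow means that did not overlap and were higher in control, and 2.37% did so in either direction, against 2 of 9 tested members, KRT18 and VIM. VIM was chosen for such a pattern, and nothing is read from its place in this count.

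The separation of KRT18 was narrow. On plain CPM averaged within a cow, control cow 1 stood at 3229 CPM and methionine-rich cow 5 at 3438 CPM, so that the diets overlapped on that scale. With normalized CPM averaged before the log, the cow means did not overlap and the KRT18 difference was -0.57 (exact permutation p = 0.0286). Without pool C2.1 it was -0.67, with the same p. The summed trophectoderm markers ranged widely within both diets, and their part in the KRT18 and KRT8 values was not tested.

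**Figure D2:**
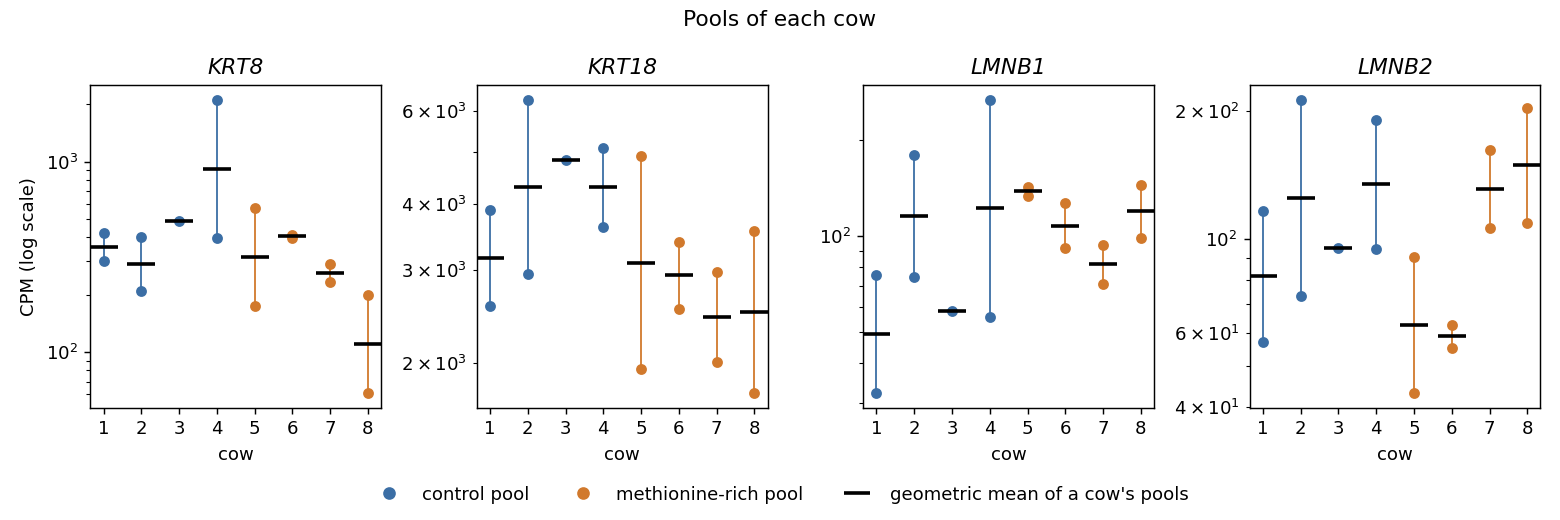
CPM of KRT8, KRT18, LMNB1 and LMNB2 on log axes in the pools of each cow, control in blue and methionine-rich in orange, with a black bar at the geometric mean of a cow's pools; cow 3 has 1 pool because C3.2 was left out. For KRT18 the bars of the control cows lie above those of the methionine-rich cows, with cows 1 and 5 close together, and for the other genes the bars overlap.

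Pools of the same cow were not closer to each other in KRT18 than pools of different cows on the same diet. The median absolute log2 difference of KRT18 was 0.70 over 7 pairs from the same cow and 0.38 over 42 pairs from different cows. For KRT8 the corresponding medians were 0.59 and 0.82. Over all tested loci the medians of these values were 0.95 and 1.02, so most of the spread between pools was already present within a cow. Because pools of a cow are not independent samples, p-values that treat them as such may be too small.

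Within a pool, the number of KRT8 counts per 100 KRT18 counts does not depend on depth. Its median was 10.1 under control (range 6.39 to 41.4) and 10.7 under the methionine-rich diet (range 3.46 to 15.7). C4.2 had the highest ratio and M8.1 the lowest. The medians of the diets were therefore close while single pools departed widely, and C3.2 had 4.67 KRT8 counts per 100 KRT18 counts. C4.2, which stood apart in KRT8, was also the highest of the 15 pools in the summed markers of trophectoderm (3025 CPM), of inner cell mass and hypoblast (4038 CPM), of cumulus and granulosa (69.0 CPM) and of fibroblast and stroma (137.9 CPM). In the last of these sums COL1A2, a collagen gene, accounted for 137.4 CPM, so the other 13 stromal markers were nearly without counts there. Single genes led the other sums of C4.2 as well, with GATA2 at 1737, FN1 at 3703 and CYP19A1 at 56.95 CPM. The part of any of these in the KRT8 value was not tested.

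**Figure D3:**
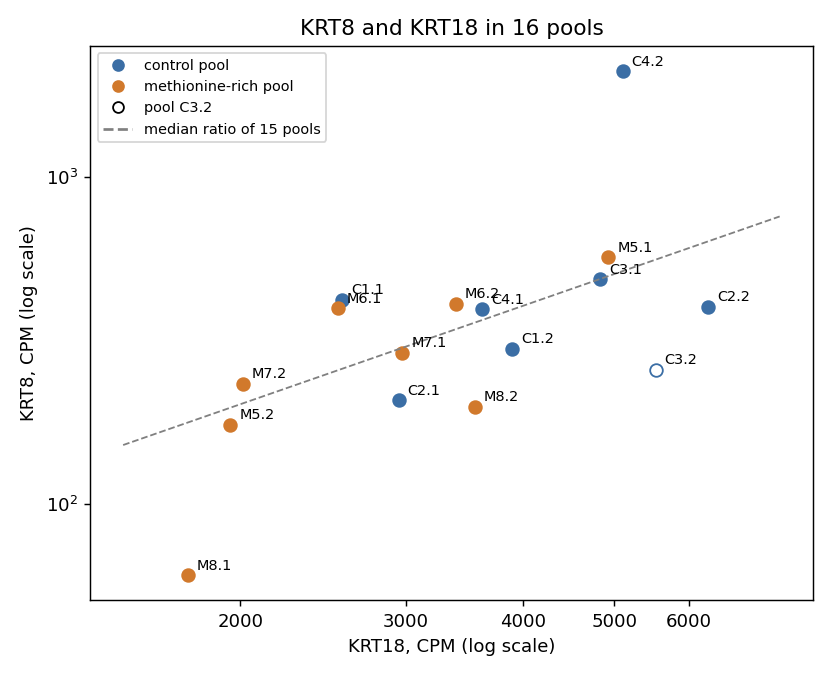
KRT8 against KRT18 in CPM on log axes, 1 point per pool, with the median ratio of 15 pools as a dashed line. C4.2 lies far above the line with 41.4 KRT8 counts per 100 KRT18 counts, M8.1 lies below it with 3.46, and the other pools scatter between 4.67 and 16.4.

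Across the 15 pools KRT8 and KRT18 had a Pearson correlation of log2 CPM of 0.63 and a Spearman correlation of 0.48, given as a description of pools that share cows and library totals. Among the 10519 loci tested, KRT18 was the 183rd closest to KRT8, and KRT8 was the 52nd closest to KRT18. The loci whose pattern was most like KRT8 were MED8 (r = 0.89), ZNF746 (r = 0.85) and LOC100850494 (r = 0.83), all of which had their highest count in C4.2. Those most like KRT18 were KAT6A (r = 0.81), PTGS2 (r = 0.77) and MPPE1 (r = 0.76). KRT8 and KRT18 are neighbouring protein-coding genes in the RefSeq annotation of the assembly ARS-UCD2.0, although KRT18 belongs by sequence to the type I keratins, whose other members lie elsewhere. Keratins form a large family with close copies, so counts of single members remain uncertain where reads could fall on more than 1 copy.

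KRT7 is a type II keratin of simple epithelia and a common marker of trophoblast. It had a lowest level of 3.91, a median of 11.6 and a highest of 28.6 CPM under control, and 5.01, 7.49 and 21.3 CPM under the methionine-rich diet. The diets overlapped broadly, C2.2 being the highest pool and C2.1, from the same cow, the lowest. The KRT7 log2 fold change was -0.13 (exact test of edgeR, FDR = 1), and over cows the difference was -0.23 ± 0.41 (SE; exact permutation p = 0.657). KRT7 counts per 100 KRT8 counts ran from 0.547 to 7.12 under control and from 1.04 to 14.4 under the methionine-rich diet.

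KRT19, the smallest type I keratin, was sparse, with 11 to 77 counts per control pool and 7 to 49 per methionine-rich pool. Its levels were 1.65, 5.93 and 9.90 CPM under control and 1.06, 4.27 and 6.75 CPM under the methionine-rich diet, as lowest, median and highest. The 3 highest pools were control pools, yet the ranges overlapped. The KRT19 log2 fold change was -0.39 (exact test of edgeR, FDR = 1), and the cows differed by -0.40 ± 0.49 (SE; exact permutation p = 0.486). Without cow 4 the KRT19 fold change was -0.12, without cow 3 it was -0.18 and without cow 1 it was -0.64, all with an FDR of 1 by the exact test. All 4 keratins thus had negative fold changes in the 15 pools, and for none of them did the adjusted difference pass the threshold.

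Among the lamins, LMNA encodes the A-type lamins, which become prominent as cells differentiate. LMNA was found at 15 to 60 counts per control pool and 20 to 85 per methionine-rich pool. Its levels were 2.47, 5.28 and 8.08 CPM under control and 2.56, 5.07 and 11.5 CPM under the methionine-rich diet. The medians nearly coincided, and 2 methionine-rich pools exceeded every control pool. The LMNA log2 fold change was 0.17 (exact test of edgeR, FDR = 1), and over cows the difference was 0.003 ± 0.38 (SE; exact permutation p = 1).

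LMNB1 and LMNB2 encode the B-type lamins, which are present in the nuclei of most cells from the earliest embryo on. LMNB1 levels were 32.2, 74.5 and 267 CPM under control and 70.5, 112.7 and 144.5 CPM under the methionine-rich diet. The methionine-rich pools lay within the control range and were less spread, the highest being 2.05 times the lowest against 8.28 times in control, where C4.2 was the highest pool. A test of this difference in spread was not run. The LMNB1 log2 fold change was 0.13 (exact test of edgeR, FDR = 1) and the cow difference 0.44 ± 0.33 (SE; exact permutation p = 0.286). With C3.2 included the LMNB1 fold change turned to -0.18.

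LMNB2 levels were 57.1, 95.2 and 213.2 CPM under control and 43.1, 98.2 and 203.9 CPM under the methionine-rich diet. In the methionine-rich treatment the 4 pools of cows 7 and 8 were all above the 4 pools of cows 5 and 6. The LMNB2 log2 fold change was -0.12 (exact test of edgeR, FDR = 1), and the cows differed by -0.23 ± 0.44 (SE; exact permutation p = 0.600). LMNB1 counts per 100 LMNB2 counts ran from 27.7 to 140.1 under control and from 43.5 to 329.7 under the methionine-rich diet. The B-type lamins did not move together closely across pools, with a Pearson correlation of 0.19 and a Spearman correlation of 0.22 over the 15 pools. The loci most like LMNB1 were ELOVL6 (r = 0.87), VRK2 (r = 0.86) and VTA1 (r = 0.82).

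NES encodes nestin, a filament protein of neural and other progenitor cells, and its counts were concentrated in few pools. M6.2 held 289 counts (48.6 CPM) and C3.1 held 195 (26.3 CPM), whereas the medians were 3.30 CPM under control and 0.829 CPM under the methionine-rich diet. Both diets ranged over a wide span that overlapped, and C3.2 had 0 counts. The NES log2 fold change was -0.08 (exact test of edgeR, FDR = 1), while over cows the difference was -1.36 ± 1.29 (SE; exact permutation p = 0.343). Its direction turned to 0.06 without TMM scaling and to 0.11 with C3.2 included, so no direction is read for NES.

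DES encodes desmin, the muscle filament protein, and was nearly absent. C1.1 had 29 counts and C2.2 had 8 among the 7 control pools, with 0 in the others. In the methionine-rich treatment M8.1 had 15, M7.2 had 9, M5.1 had 4 and M8.2 had 1 count, with 0 in the other 4 pools. DES did not reach the summed CPM of 15 required for testing, so 9 of the 10 members were tested. A count of 0 allows up to 0.533 CPM at these depths, so low levels in those pools were not detectable.

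**Figure D4:**
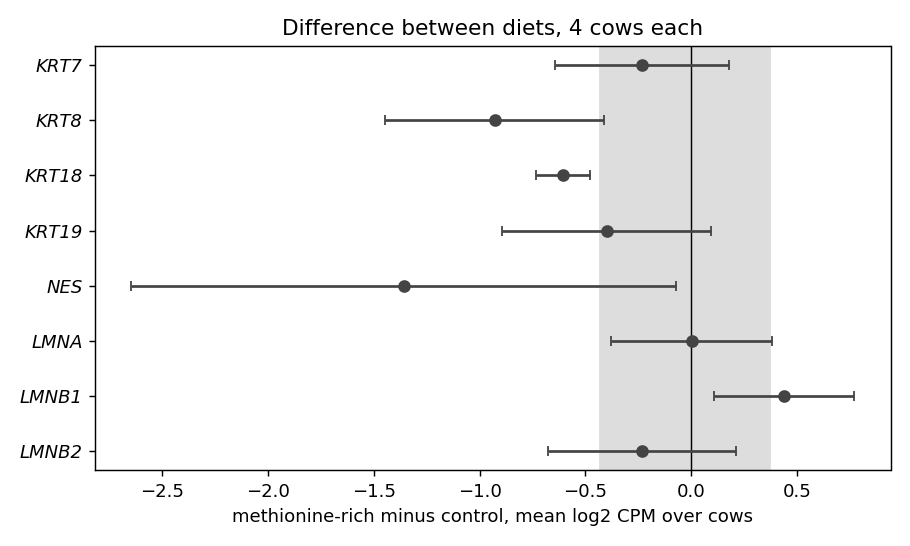
Difference in mean log2 CPM, methionine-rich minus control, for the 8 tested members other than VIM, with bars of 1 SE over 4 cows per diet and a grey band from the lower to the upper quartile of all 10519 tested loci (-0.43 to 0.37). KRT8, KRT18 and NES lie to the left of the band, NES with the widest error, and LMNB1 lies to its right.

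Read across the members, 7 of 9 had a log2 fold change below 0 in the exact test, beside 53.5% of all loci tested. Leaving out VIM, which was chosen for its control counts, and NES, whose direction was not stable, 5 of 7 were below 0. The median was -0.13 over the 9 members, -0.13 over those 7 and -0.05 over all loci. The exact test called 1 of 9 members, VIM, whose counts chose it, beside 1.05% of all loci, 0.77% being higher in control and 0.276% higher in the methionine-rich treatment. The quasi-likelihood test called 0 members and 0.0% of all loci, although 909 loci had an unadjusted p under 0.05.

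VIM, the type III filament gene of mesenchymal cells and leukocytes, had 3283 counts in C2.1, which is 583.7 CPM and 99.5% of its counts over the 15 pools. C4.1 and C4.2 had 5 counts each, C2.2 had 3, C3.1 had 2, C1.1 had 1 and C1.2 had 0. All 8 methionine-rich pools had 0 counts. C2.1 was at least 1156-fold higher than the methionine-rich pools, taking 3 counts per pool, or at most 0.505 CPM, as the limit for a count of 0. C2.2, from the same cow as C2.1, had 0.464 CPM, and C3.2 had 1 count.

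Outside C2.1 the difference between the diets therefore rested on 16 VIM counts in 6 control pools. Without C2.1, VIM fell below the filter for testing and no member was called. Small counts beside a very high pool were not particular to VIM. For the 9 loci with at least 500 counts in C2.1 and at least 99% of their counts there, VIM among them, 18044 counts in C2.1 stood beside 86 in the rest of the control pools and 2 under the methionine-rich diet. For 3 such loci of M6.1, 3621 counts stood beside 10 in control and 10 in the other methionine-rich pools. Over the 16 such loci of any control pool, the rest of the control pools had 99 counts and the methionine-rich pools 5. The single loci of C1.1, C3.1 and C4.1 had 0 counts in the rest of the control pools, with 1, 1 and 0 under the methionine-rich diet. Which sequencing lane each pool ran on is not given in the sources used here, and the part of lane or barcode in these small counts was not tested.

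Markers of other cell types were read in C2.1 beside VIM. Of 20 leukocyte markers, 13 reached 10 counts in C2.1. The other control pools had 0 to 6 such markers and the methionine-rich pools 1 to 4. Of the 20, 11 were at their highest of the 15 pools in C2.1. PTPRC, CD14, CSF1R, FCER1G and RAC2 were higher in another of these pools, and CSF1R and RAC2 reached 10 counts in most pools of both diets. The 20 markers summed to 2503 CPM in C2.1. Their sum was 3.60 to 48.6 CPM in the rest of the control pools and 6.54 to 41.0 CPM under the methionine-rich diet. C3.2 had 196 CPM in sum, but there PTPRC alone held 278 counts, LAPTM5 and TYROBP had 7 and 3, and LCP1, NKG7, ITGB2 and SPI1 were at 0. LAPTM5, a lysosomal membrane protein of blood cells, had 1239 CPM in C2.1, NKG7, a protein of cytotoxic granules, had 479.7 CPM and TYROBP, a signalling adaptor of myeloid and natural killer cells, had 377.3 CPM. The study itself reported LAPTM5, NKG7, TYROBP and LCP1 from these libraries, so these markers are not independent of them. It reported VIM with them as higher in control. The study also described a similar pattern of VIM by PCR and by sequencing. That PCR used the same RNA samples, combined into a single cDNA pool per treatment. Among defining markers, PTPRC had 18 counts in C2.1, CD14 had 5, and the T cell genes CD2, CD3D and CD3E and the granulocyte gene S100A9 were at 0.

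The fibroblast and stroma markers did not stand out in sum in C2.1. Their summed level over 14 genes was 19.6 CPM there, 14.1 to 137.9 CPM in the rest of the control pools and 4.98 to 39.4 CPM under the methionine-rich diet. FAP had 7.47 CPM in C2.1, its highest of the 15 pools, while COL1A2 had 5.69 and TWIST1 3.56 CPM. At 0 were 7 of the 14, among them PDGFRB, THY1 and ACTA2. The mesenchymal transition genes, 7 found of 8 listed, also stayed within the range of other pools. Their sum was 48.9 CPM against 35.1 to 153.5 CPM in control and 32.2 to 111.6 CPM in methionine-rich pools. ZEB1 had 23.5, SNAI1 13.7 and CDH2 8.18 CPM in C2.1. VIM was thus high in a pool in which summed leukocyte markers were high and summed stromal and mesenchymal markers were not. The leukocyte sum lay mostly in LAPTM5, NKG7, TYROBP and LCP1, which the study had reported from these libraries, so this contrast is a description. Apart from them, SPI1 had 78.6, CD53 76.6 and ITGB2 40.2 CPM in C2.1. The rest had at most 8.18 CPM there, 4 of the 20 markers being at 0. The part of leukocyte RNA in the VIM counts of C2.1 was not tested.

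The remaining lists differed less from the other pools in C2.1. Endothelial markers summed to 14.1 CPM, slightly below every methionine-rich pool. Among them PECAM1 had 11.4 CPM and KDR had 2.67 CPM, its highest of the 15 pools. Their sum was 10.2 to 50.5 CPM in the rest of the control pools and 14.4 to 45.3 CPM under the methionine-rich diet. Uterine and oviduct epithelium markers summed to 4.98 CPM, among them MUC16 with 4.09 CPM, beside 0.165 to 16.2 and 0.256 to 41.6 CPM. Cumulus and granulosa markers summed to 58.1 CPM, beside 2.64 to 69.0 and 4.32 to 55.7 CPM, so that C2.1 was above every methionine-rich pool and every other control pool but C4.2. Among them INHBA, an inhibin subunit, was at its highest of the 15 pools with 26.3 CPM, CYP19A1 had 22.4 CPM and STAR 9.42 CPM, and their part in the VIM value was not tested. Of the embryo's own markers, 7 of 10 trophectoderm genes and 6 of 8 inner cell mass and hypoblast genes reached 10 counts in C2.1. The others were TFAP2A with 0, GRHL2 with 5, CDH1 with 9, SOX17 with 0 and GATA4 with 1 count, and CDX2 had 11. Trophectoderm markers summed to 1167 CPM there, beside 1197 to 3025 CPM in the rest of the control pools and 1002 to 1933 CPM under the methionine-rich diet, with GATA2, TFAP2C and EPCAM at 399.5, 279.2 and 162 CPM. GATA3, another trophectoderm factor, was at 64.4 CPM against a median of 37.9 CPM over the 15 pools. Inner cell mass and hypoblast markers summed to 1294 CPM, beside 1103 to 4038 and 1085 to 3488 CPM, with FN1, PDGFRA and GATA6 at 1168, 50.3 and 40.9 CPM.

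**Figure D5:**
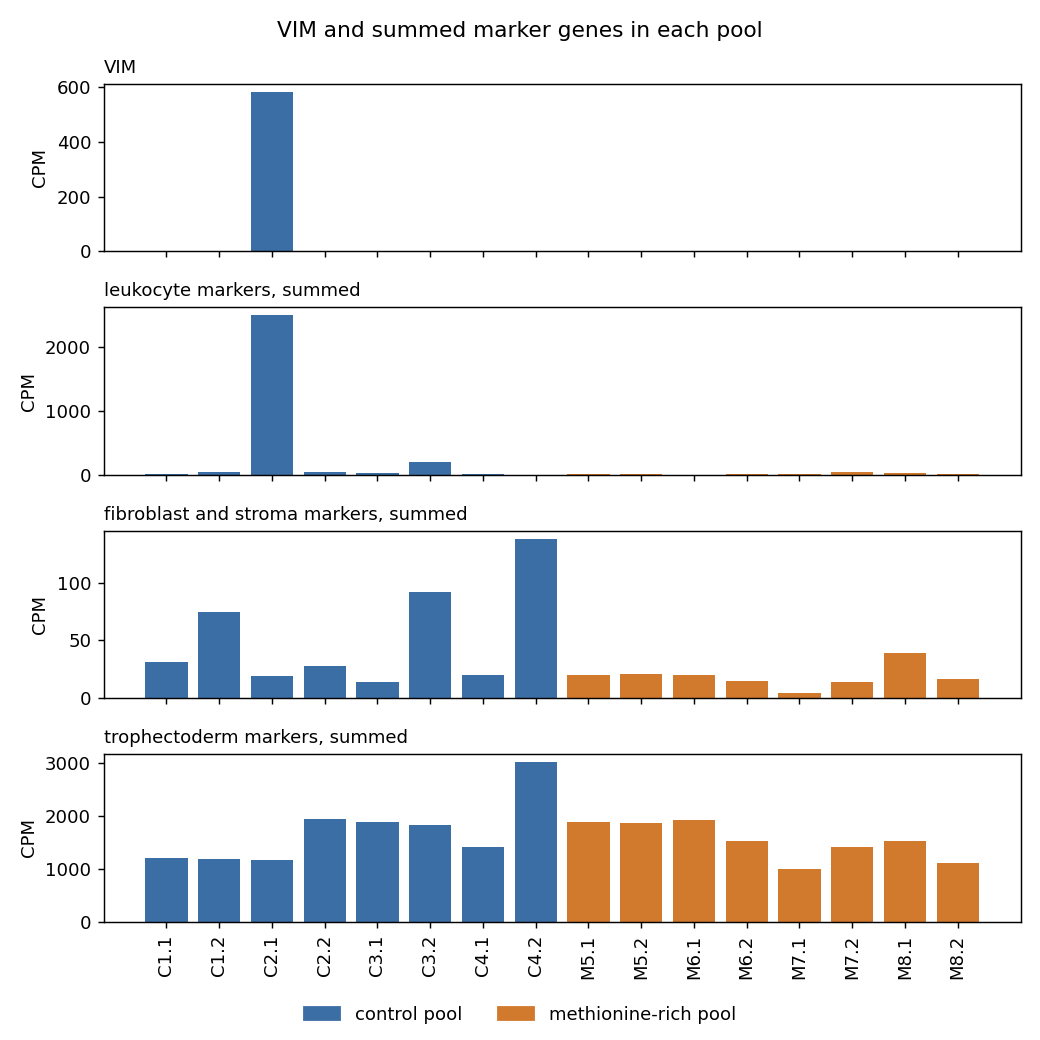
VIM (upper panel) and the summed CPM of leukocyte, of fibroblast and stroma, and of trophectoderm markers in each of the 16 pools, with linear axes from 0. C2.1 carries the VIM bar of 583.7 CPM and the leukocyte bar of 2503 CPM, while its stromal bar, 19.6 CPM, is not among the highest. Most of that leukocyte bar comes from LAPTM5, NKG7, TYROBP and LCP1, which the study had reported from these libraries.

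The keratins in C2.1 were measured at the low end of the control pools. KRT7 at 3.91 and KRT8 at 208.7 CPM were the lowest of the 7, and KRT18, at 2946 CPM, stayed above the lowest control pool. The lamins were not at either end, with LMNB1 at 74.5 and LMNB2 at 73.3 CPM. The loci whose pattern was most like VIM over the 15 pools were LOC100852347 (r = 0.99), the class II antigen-presenting gene BLA-DQB (r = 0.99) and the chemokine gene CXCL2 (r = 0.98), each with over 98% of its counts in C2.1.

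The wider intermediate filament family was largely silent. Of 57 loci for 55 other keratin, neurofilament and related genes, 21 were at 0 in all 16 pools and 37 stayed under 10 counts in each of the 15 pools. Only 8 passed the filter for testing, and 0 were called by either edgeR test, with a median log2 fold change of 0.06. The median level over the 15 pools was 19.3 CPM for KRT5, a basal epithelial keratin, 17.5 CPM for the lens filament gene BFSP1 and 9.50 CPM for the neuronal filament gene INA. KRT5 reached its highest level, 157.9 CPM, in C4.2, the pool that also led in KRT8 and LMNB1. KRT86, a hair keratin, had 0 counts in all control pools and reached 10 counts in 3 methionine-rich pools, with at most 80 counts in M8.1. M8.1 held 72.1% of its counts. KRT86 passed the filter on low values only through the methionine-rich pools, so its non-overlapping cow means are a description and no test of it is used as support. It was not called in the 15 pools by either edgeR test, and the exact test called it with RLE size factors, without cow 6 and with C3.2 included.

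Desmosomal and linker genes tie keratin filaments to the cell surface and to the rest of the cytoskeleton. Of 18 genes listed, 15 were matched by name and 10 were tested, and 0 were called by either edgeR test, with a median log2 fold change of -0.32. The median level over the 15 pools was 1131 CPM for DSG2, a desmosomal cadherin, 309.7 CPM for MACF1, a linker of actin and microtubules, and 53.3 CPM for EPPK1, a keratin-binding plakin. DSG2 had a lowest level of 586, a median of 1173 and a highest of 1644 CPM under control, and 496, 1021 and 1293 CPM under the methionine-rich diet. Its cow difference was -0.29 ± 0.32 (SE; exact permutation p = 0.429). MACF1 differed by 0.40 ± 0.23 and EPPK1 by -0.83 ± 0.47 (SE; exact permutation p = 0.171 and 0.143). PLEC, PKP1 and PKP3 were not analysed here.

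Partners of the lamina and enzymes that process prelamin were measured more fully, with 16 loci tested of 18 found for 17 of the 18 listed genes. None was called by either edgeR test, and the median log2 fold change was 0.21. The median level was 144.9 CPM for EMD (emerin, an inner nuclear membrane protein), 137.4 CPM for FNTA (a subunit of the farnesyltransferase that modifies lamins) and 120.7 CPM for SUN2 (a link between lamina and cytoskeleton). Their cow differences were -0.18 ± 0.55 for EMD, 0.11 ± 0.31 for FNTA and 0.33 ± 0.33 for SUN2 (SE; exact permutation p = 0.771, 0.771 and 0.343). With C3.2 included, LEMD2, an inner nuclear membrane protein, was called with an FDR of 0.0256 by the exact test, and C3.2 alone held 1018 LEMD2 counts against at most 520 in any other control pool. SUN1 was not analysed here.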

How the data were processed

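The authors amplified the RNA of each pool before sequencing, then mapped reads to bosTau7 with TopHat2 2.0.4, assembled transcripts with Cufflinks 2.0.2 and counted reads per gene with HTSeq. The deposited files hold raw counts, 22552 lines per pool, which list some loci more than once; each of the 22358 loci was used once. CPM were computed from the pool totals. CPM carry no correction for gene length or for amplification, so the order of CPM between genes is not an order of transcript numbers and served only to choose which genes to name.

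With edgeR 4.0.16 in R 4.3.3, loci with a summed CPM of at least 15 over 15 pools were normalized by TMM (factors 0.841 to 1.327), common (1.142) and tagwise dispersions were estimated, and diets were compared by the exact test with Benjamini-Hochberg adjustment (called: FDR under 0.1 and at least 2-fold). The quasi-likelihood test, DESeq2 1.42.0 and limma 3.58.1 were alternatives. Cow means of log2 CPM (TMM, prior count 2) were compared by the two-sided exact permutation test over 70 assignments. The embryos of a cow were divided between its pools, which therefore share a dam. No pair of pools held the same library. The code was tested on simulated data. The precision of low counts is limited by depth, and the floors cover counting error only.

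The members and lists were chosen with earlier results of these data known. The genes named are the members, the 3 genes of highest median CPM and any called gene of each pathway list, the 3 loci most correlated with KRT8, KRT18, LMNB1 and VIM, and up to 3 leading markers per list in the pool with most VIM; KRT86, LEMD2 and the other single markers were named after their values were seen.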

Additional observations from a re-analysis of the deposited data

Results flagged for a closer look

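Within a diet, 19 groups of 7 or 8 pools were examined for a single pool whose gap to its neighbour was large for the range of the group (Dixon's 95% critical value), and 6 stood out. Chance alone gives about 1 in 20 groups only where values are normally distributed. The rule was applied here to plain CPM, and DES in control had counts in only 2 of 7 pools. The chance rate for such values was not determined, so the number of groups that stood out is not compared with chance. KRT8 in control was highest in C4.2 at 2114 CPM, with the next pool at 489.1 CPM. VIM in control was highest in C2.1 at 583.7 CPM, with the next at 0.824 CPM, which is the pattern it was chosen for. KRT7 in control was highest in C2.2 at 28.6 CPM, with the next at 13.7 CPM. NES stood out in both diets, in control with C3.1 at 26.3 CPM over 10.1 CPM and in methionine-rich with M6.2 at 48.6 CPM over 2.34 CPM. DES in control was highest in C1.1 at 3.83 CPM, with the next at 1.24 CPM. The 6 values fell in 6 different pools.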

How the results depend on the processing

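The exact test called 110 loci. The number was 0 by the quasi-likelihood test, 0 by limma voom with cows as random effects, 67 by DESeq2, 55 with no filter on low counts, 0 with at least 10 counts in every pool, 341 with all 16 pools, 64 without C2.1 and 62 to 153 without 1 cow at a time. It was 42 with counts under 1% of a locus's highest set to 0, an alternative chosen after seeing the data. The 1 member called, VIM, was not called by the quasi-likelihood test, by DESeq2 (which gave it no adjusted p), by limma voom, with at least 10 counts in every pool or without C2.1 (0 in each case), and without 1 cow at a time the count was 0 to 1, being 0 without cow 2. With all 16 pools, 1 other intermediate filament gene (KRT86, also called with RLE size factors and without cow 6) and 1 lamina gene (LEMD2) were called. Of 166 alternative log2 fold changes of members, 149 kept direction and call and 14 changed sign, none of them past the threshold. Without 1 cow at a time, the fold changes ran from -0.41 to 0.12 for KRT7, from -2.79 to 0.89 for NES, from -0.20 to 0.35 for LMNA, from -0.074 to 0.47 for LMNB1, from -0.41 to 0.12 for LMNB2. NES also turned to 0.058 without TMM and 0.11 with all 16 pools, and LMNB1 to -0.18 with all 16 pools. Of 45 alternative cow differences, those without C2.1 and with CPM averaged before the log chosen after seeing the data, 44 kept direction and side of the threshold, and LMNA became -0.007 without C2.1. The causes of these changes were not tested. Levels per transcript length were not run, since no transcript lengths were at hand. No paired analysis was possible because the diets share no cow and no replicate number. With 4 cows per diet, the smallest exact permutation p was 0.0286. Only 2.37% of loci reached it, too few for any adjusted permutation p to pass the threshold. Genes with few counts (KRT19, LMNA, DES, NES) are limited by depth.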
